A study of Homo sapiens with 6 samples.

Results

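Mitochondrial ribosomal protein (MRP) genes were examined in A375, a human melanoma cell line in long-standing use. They were taken by symbol, as MRPL for the large or MRPS for the small subunit followed by a number and, in some, a letter from A to C. The rule found 78 of the 28395 genes in the deposited table, of which 49 were MRPL and 29 were MRPS genes. Of these symbols, 77 are the current RefSeq ones, and MRPS36 is now named KGD4. A375 cells, labelled WT, had been given OZO (ozonated olive oil, 0.01%) or, as the control, OLO (olive oil, 0.01%) for 6 h in DMEM with 10% fetal bovine serum, and each group had 3 libraries. The study asked how OZO changes gene expression in these cells. For each gene, the mean over all 6 libraries of both groups was used here, and single libraries were not analysed. The values are therefore levels of the MRP genes and not effects of OZO, and no level has a spread between libraries. A375 is 1 line, and the labels do not say whether the 3 libraries of a group came from separate cultures, although a figure legend of the study describes its data on these cells as independent experiments.

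The mitochondrial ribosome translates the few mRNAs of the mitochondrial genome, which code for core subunits of the respiratory chain and of ATP synthase. Its ribosomal RNAs are made in the organelle, but its proteins are encoded in the nucleus, made in the cytosol and imported. Some of these proteins have a counterpart in bacterial ribosomes, and others were added during the evolution of mitochondria. One copy of most of them enters each ribosome, with the stalk protein MRPL12 present in several copies.

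The authors' mean is in log2 CPM, the logarithm of a gene's counts scaled to a common library size. To compare genes it was divided by the length of 1 representative transcript per gene, and this quantity, in log2 CPM per kilobase, is the level given here. The lowest value of the table belongs to genes with no read, and from it a geometric mean library of 18409903 counted fragments follows. The depth of each library is unknown here. A gene's implied reads are the reads per library of that size that give its mean. At this depth, 21383 genes had a read, 13773 had at least 10 implied reads and 7012 had no read. In the check of the cell type, VIM had 38125 implied reads, SOX10, a transcription factor of the melanocyte lineage, had 919 and MITF had 499, but the pigment genes PMEL and DCT had 5.75 and 4.74 and TYR had none. The melanocyte markers S100B and MLANA had 51.0 and 36.6. Markers of other cells ranged from no read for KRT1 to 77.5 implied reads for KRT14, over 8 genes of keratinocytes, fibroblasts and leukocytes. The value of KRT14 was thus above those of S100B and MLANA.

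All but 3 of the MRP genes were well covered by reads. Of the 78 genes, 75 had between 145 and 5479 implied reads, and the other 3, MRPS18B, MRPS24 and MRPL45, had fewer than 10. The median level over all 78 was 4.66 log2 CPM per kilobase, or 25.2 CPM per kilobase. Of the members, 49 lay within a factor of 2 of that median, and the fold between the lower and the upper quartile was 2.70. The median level of protein-coding genes with a read was 1.76, and that of coding genes with at least 10 implied reads was 2.98 log2 CPM per kilobase. These gaps rest in part on length, since the median transcript had 1242 bases in members and 3510.5 in the latter set. With no length term the medians of these 2 sets were closer, at 5.30 and 4.79 log2 CPM. In log2 CPM, 75 members were above the median of the genes with a read, 39 were above the 75th percentile and 6 above the 90th. The plot of levels in order shows these 75 genes and the 3 below them.

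**Figure D1:**
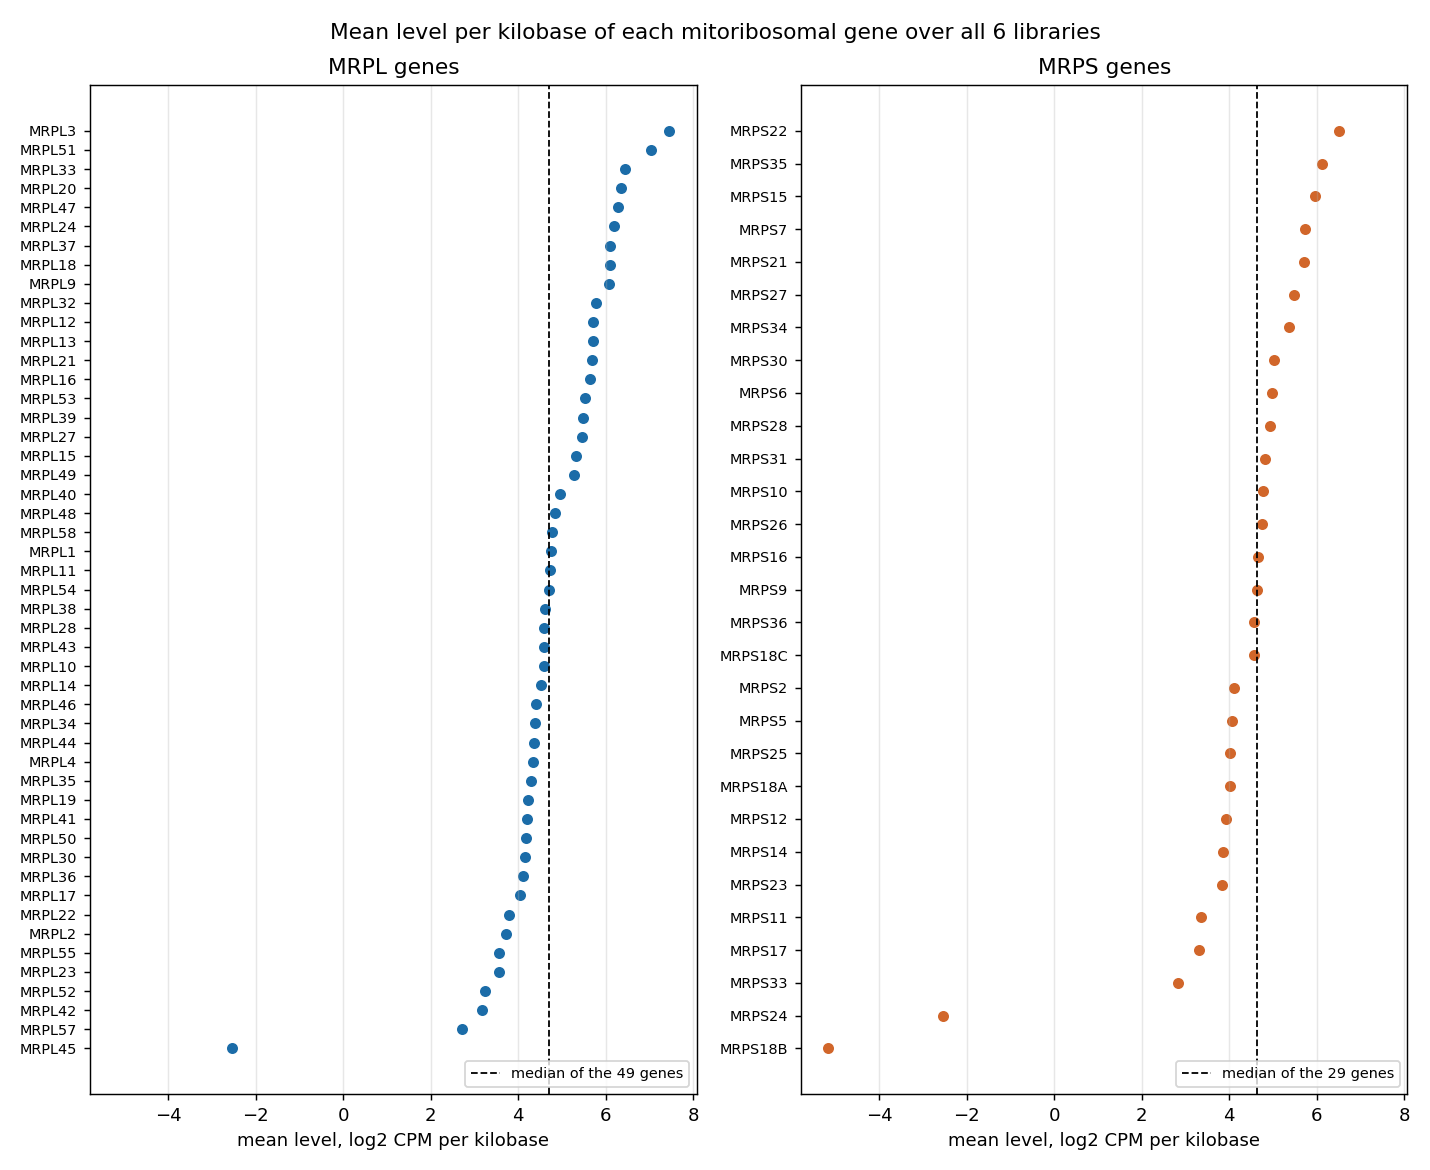
Level of each MRPL gene (left, blue) and each MRPS gene (right, orange), as the authors' mean over 6 libraries in log2 CPM per kilobase of transcript; dashed lines mark the subunit medians of 4.70 and 4.65. MRPL45, MRPS24 and MRPS18B lie below −2, and the other 75 genes lie between 2.72 and 7.45.

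Both subunits had nearly the same median level. It was 4.70 log2 CPM per kilobase, or 25.9 CPM per kilobase, for the 49 MRPL genes, and 4.65 for the 29 MRPS genes, a difference of 0.05 on the log2 scale. The MRPL genes held 64.9% of the summed CPM of the members and were 62.8% of the members. Interquartile ranges were 1.51 for MRPL and 1.09 for MRPS genes on the log2 scale, so the difference between the medians was small beside the spread within either subunit. No test was made, because genes are not replicates and a mean over libraries carries no spread. The sign of the difference turned with the length used, and it was −0.19 when levels were scaled by coding length. MRPS transcripts were longer, with a median of 1458 against 1175 bases, and coding sequence made up 44.9% of the MRPS and 56.0% of the MRPL transcript at the median.

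A symbol does not always give the place of a protein in the ribosome. MRPS30 and MRPS18A carry small-subunit symbols but belong to the large subunit, where they are named mL65 and mL66. Their levels were 5.02 and 4.02. MRPS36 is a subunit of the 2-oxoglutarate dehydrogenase complex and not of the mature ribosome, and its level was 4.56 with 570 implied reads. With genes sorted by place, the medians were 4.70 for 51 large and 4.66 for 26 small-subunit proteins. MRPS18A, MRPS18B and MRPS18C descend from one bacterial gene. Of these, MRPS18C, the bS18m protein, had a level of 4.56, while MRPS18B, the mS40 protein, had almost no reads.

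Among MRPL genes, MRPL3 was highest. It encodes uL3m, a protein of the core of the large subunit, and lies on chromosome 3 (GRCh38.p14, 131462212 to 131502971, minus strand). Its level was 7.45 log2 CPM per kilobase, or 174 CPM per kilobase, from 5479 implied reads. Next came MRPL51 at 7.02, a protein found in mitochondrial and not in bacterial ribosomes, and then MRPL33 at 6.43 and MRPL20 at 6.36, both with bacterial counterparts. MRPL47 and MRPL24, which line the exit of the peptide tunnel, followed with 6.28 and 6.18. DAP3, a GTP-binding small-subunit protein without an MRP symbol, had a level of 7.03, next to MRPL51.

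Among MRPS genes, MRPS22 was highest, with a level of 6.52 log2 CPM per kilobase and 2030 implied reads. It encodes mS22, a mitochondria-specific protein of the small subunit, on chromosome 3 (139343994 to 139357140, plus strand). MRPS35, also mitochondria-specific, had 6.13. MRPS15 and MRPS7, which have bacterial counterparts, had 5.96 and 5.74. MRPS21 and MRPS27 completed the upper 6, with 5.71 and 5.48. The highest MRPS gene by level thus lay between MRPL51 and MRPL33.

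At the lower end of the 75 genes, several had long transcripts for small proteins. MRPL42, a mitochondria-specific protein, had a log2 CPM of 7.14 from 2593 implied reads, but its representative transcript has 15557 bases, and its level was only 3.18. MRPS23 had a log2 CPM of 6.31, a transcript of 5609 bases and a level of 3.83. MRPL57 had the lowest level of the 75, 2.72, with 271 implied reads. MRPS33 had 2.82, with 548 implied reads over 4210 bases. For other genes the reads themselves were few. MRPL23, a protein of the tunnel exit, had the fewest implied reads of the 75, 145, and a level of 3.55, and MRPL55 had 159 and 3.56. MRPL52 and MRPS17, with 192 and 328 implied reads, lay at 3.23 and 3.32. MRPS11, at 3.36, had a long transcript instead, with 641 implied reads over 3392 bases.

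Counting error was small for these 75 genes. As a standard error of the log2 mean it was between 0.0080 and 0.049, and it covers the counting of reads only. Even so, 53 of the 74 neighbouring pairs in the order of levels differed by less than the 95% counting interval of their difference, so the order of the 75 genes is not resolved gene by gene. The order also rests on the length of 1 representative transcript per gene. In log2 CPM with no length term, MRPL3 was still highest at 8.22. MRPL19 and MRPL42 followed with 7.20 and 7.14, above the 6.87 of MRPL51. No order by coding length is given here. The range was 26.4-fold in CPM per kilobase and 37.8-fold in CPM. The 5 members with the highest CPM took 21.5% of the summed CPM of all members, 3903.

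MRP genes with larger log2 CPM had longer transcripts and lower GC content. Across the 75 genes, Spearman's rho of log2 CPM was 0.49 with transcript length, 0.40 with the number of exons and −0.51 with GC content. Over 12432 coding genes with at least 10 implied reads the same values were 0.15, 0.20 and −0.31. For the level per kilobase, rho with GC content was −0.06 over the 75 genes and −0.19 over the coding genes. Log2 CPM has no length term, so some rise with transcript length is built into that measure. These are correlations across genes, which share libraries and are not independent replicates.

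**Figure D2:**
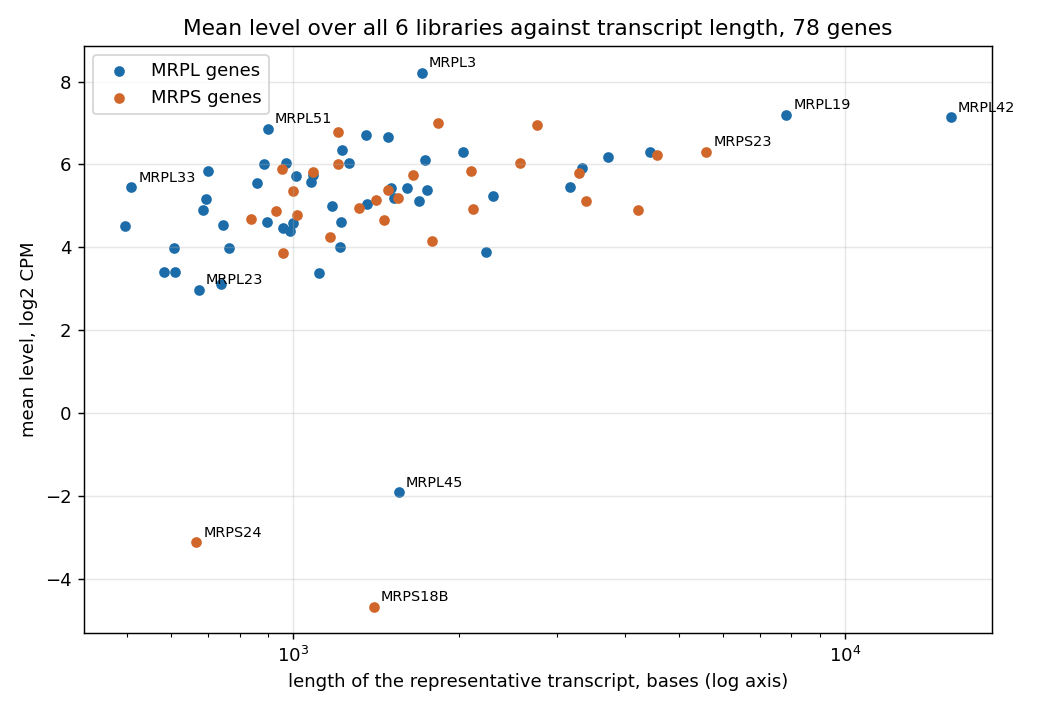
Authors' mean in log2 CPM against the length of the representative transcript in bases (log axis) for 49 MRPL (blue) and 29 MRPS (orange) genes. MRPL42, with 15557 bases, stands to the right, MRPL3 is highest at 8.22, and MRPS18B, MRPS24 and MRPL45 lie below 0.

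The medians by evolutionary class of the protein were close. For 46 proteins with a bacterial counterpart it was 4.66 and for 31 mitochondria-specific proteins 4.70 log2 CPM per kilobase. Within the large subunit the medians were 4.75 for 30 and 4.60 for 21 proteins, and within the small subunit 4.60 for 16 and 4.78 for 10. The sign of the pooled difference, −0.04, turned under other scalings, to 0.61 with coding length and 0.28 with no length term.

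Some members were assigned here to sites of the ribosome, and these lists need not be complete. Among the assigned genes, levels differed more within some sites than within others. In the stalk, which recruits translation factors, MRPL12 had a level of 5.71 with 974 implied reads, and MRPL11 and MRPL10 had 4.74 and 4.58. A ribosome holds several copies of MRPL12, and its level was above those of MRPL11 and MRPL10 but ranked 15 among the 78 members. Any link between copy number and level was not tested. The 5 proteins assigned here to the central protuberance, where the subunits and the transfer RNA meet, ranged from 4.41 for MRPL46 to 4.96 for MRPL40. Among them MRPL58, a peptidyl-tRNA hydrolase that became part of the ribosome, had 4.78. Around the tunnel exit, 7 genes had a median of 4.03 and ran from MRPL45, with almost no reads, to MRPL47. Of 4 proteins of the decoding centre and mRNA path, MRPS12, the uS12m protein of the decoding centre, had 3.93, MRPS5 had 4.06, MRPS35 had 6.13 and MRPS24 had almost no reads. MRPL36, the bL36m protein, had 4.12, and MRPS28, the bS1m protein, had 4.94.

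MRPS18B, MRPS24 and MRPL45 stood apart from all others. MRPS18B lies on chromosome 6 (30617840 to 30626392, plus strand) and had 0.221 implied reads. Its mean is that of 2 or 4 reads in all 6 libraries together. MRPS24, on chromosome 7 (43866558 to 43869517, minus strand), encodes uS3m, a protein of the mRNA entry. It had 1.62 implied reads, which is at least 13 reads in at most 5 of the libraries. MRPL45, on chromosome 17 (38297168 to 38323211, plus strand), encodes a protein by which the ribosome is held at the inner membrane. It had 4.41 implied reads, or at least 28 reads in all. No fold is given for MRPS18B and MRPS24, whose means are under 3 reads per library.

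Each of these 3 genes shares sequence with another place in the genome or with another annotated gene. The transcripts of all coding genes were aligned to hg38 with its 261 alternate contigs, and a copy was counted where at least 90% of a transcript aligned with at least 98% identity. MRPS18B had 6 further copies of 100% identity, each on an alternate contig of chromosome 6. MRPL45 had 1, of 99.9% identity, on an alternate contig of chromosome 17. MRPS36 also had 1, of 99.9% identity, on an alternate contig of chromosome 5, but had 570 implied reads. MRPL23 had a copy of 99.9% identity on an unlocalized contig of chromosome 11, and its implied reads were the fewest of the 75. MRPS24 had no such copy, but 90.9% of its exonic bases lay in exons of the readthrough gene URGCP-MRPS24 on the same strand, which itself had no read. MRPL53 shared 99.2% of its bases with CCDC142 on the same strand and had 419 implied reads.

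The same pattern held over coding genes as a whole. Of 718 coding genes with a near-identical copy on an alternate contig, 606, or 84.4%, had under 10 implied reads, against 6140, or 33.3%, of 18460 without. Among the genes of the comparison lists below, 4 of 9 with such a copy had under 10 implied reads, RPS18, VARS2, NDUFA3 and NDUFA6, and 1 of 206 without one did, ATP5F1E. RPS7 and RPL9 had such copies and 10873 and 7595 implied reads. Of 159 coding genes that shared at least 90% of their exonic bases with another gene on the strand, 126, or 79.2%, had under 10 implied reads, against 6477, or 34.7%, of 18688 that shared under 10%. In neither comparison were the sets of coding genes matched in other respects, so they may differ in kind. Of the 2 members that shared at least 90%, MRPS24 was under 10 implied reads and MRPL53 was not. It is not given in the sources used here which contigs the authors aligned to or how reads with several placements were counted, and the part of these copies in the low values was not tested. The levels of MRPS18B, MRPS24 and MRPL45 are therefore uncertain, and absence of their mRNA cannot be read from them.

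**Figure D3:**
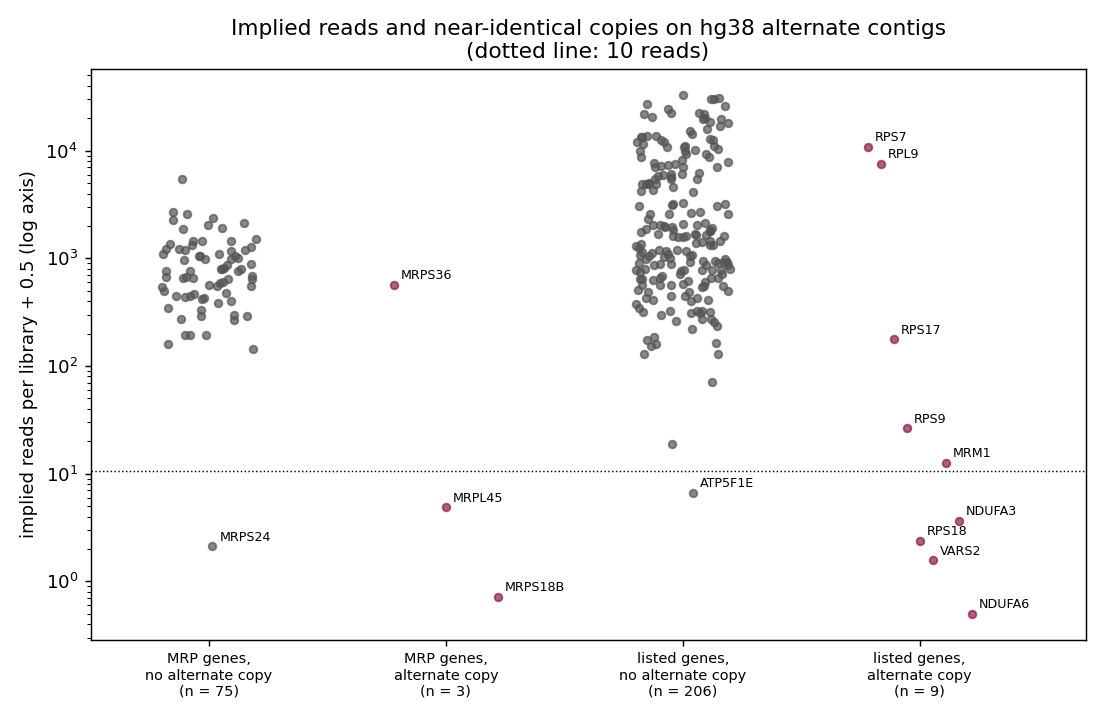
Implied reads per library, with 0.5 added (log axis), for MRP genes and for genes of the 6 comparison lists, without (grey) and with (red) a near-identical copy on an alternate contig; the dotted line marks 10 reads. Among MRP genes with a copy, MRPS18B and MRPL45 are under the line and MRPS36 is above it, and MRPS24 is the only one without a copy under it.

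Rows of pseudogenes and antisense genes were next set beside the members. MRPL45P2, a pseudogene of MRPL45 on chromosome 17 (47450568 to 47492493, minus strand), had 156 implied reads, while its parent gene had 4.41. Their transcripts aligned over 477 bases, of which 473, or 99.2%, were the same, with 12 bases in gaps. The stretch of 120 bases that held most of the differences, from within the coding sequence of MRPL45, is shown to let the likeness of the pair be seen. The aligned part is 30.7% of the MRPL45 transcript, and the rest of MRPL45 has no counterpart in this alignment. The 3 bases that differ are in capitals, and the stretch runs from base 24 to 143 of the MRPL45 transcript and from base 42 to 161 of the MRPL45P2 transcript (GENCODE 44).
MRPL45: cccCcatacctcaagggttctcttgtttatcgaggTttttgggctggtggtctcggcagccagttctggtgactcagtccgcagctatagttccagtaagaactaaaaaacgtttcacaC
MRPL45P2: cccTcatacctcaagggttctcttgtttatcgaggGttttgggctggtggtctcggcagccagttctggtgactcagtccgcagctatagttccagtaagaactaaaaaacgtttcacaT

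Other related rows were small beside their members, with 2 above 10%. MRPS31P5, a pseudogene of MRPS31, had 141 implied reads, or 18.3% of the 771 of MRPS31. MRPL20-AS1, an antisense gene, had 154, or 14.6% of the 1056 of MRPL20, and 19.7% of the exonic bases of MRPL20 overlapped it. Less than 2% of the member's value was found for MRPS30-DT, MRPL42P5, MRPS9-AS1, MRPS9-AS2 and MRPL23-AS1. In 12 members more than 10% of the exonic bases overlapped a gene on the other strand, up to 83.6% for MRPS18C with ABRAXAS1 and 60.6% for MRPS18A with RSPH9. The libraries mark the strand, but its use in counting is not given in the sources used here, so the values of such pairs are uncertain.

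MRP genes were next compared with genes of related function. Cytosolic ribosomal protein genes had a median level of 9.15 log2 CPM per kilobase over 77 genes, far above the MRP genes, and a summed CPM of 46516. Nuclear-encoded subunits of the respiratory chain and of ATP synthase had 5.96 over 78 genes. Mitochondrial translation factors had 4.30 over 14, assembly and rRNA modification factors 3.67 over 24 and mitochondrial aminoacyl-tRNA synthetases 3.46 over 17. Per kilobase, the MRP median of 4.66 lay between the respiratory chain and the translation factors. This place rests on the scaling by length, since in log2 CPM with no length term the MRP median was 5.30, below the 5.55 of the translation factors and the 5.41 of the aminoacyl-tRNA synthetases.

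The ribosomal proteins without an MRP symbol fell on both sides of that median. DAP3 had 7.03 and AURKAIP1 had 5.33. PTCD3, a pentatricopeptide repeat protein of the small subunit, had 3.84, CHCHD1 had 3.81 and GADD45GIP1, a protein of the large subunit, had 3.72. Of the translation factors, TUFM, the elongation factor that brings aminoacyl-tRNA to the ribosome, was highest at 6.80. MRRF, the ribosome recycling factor, was lowest per kilobase at 2.15. By log2 CPM with no length term, MRRF had 5.42 and MTFMT, the methionyl-tRNA formyltransferase, was lowest at 4.01.

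**Figure D4:**
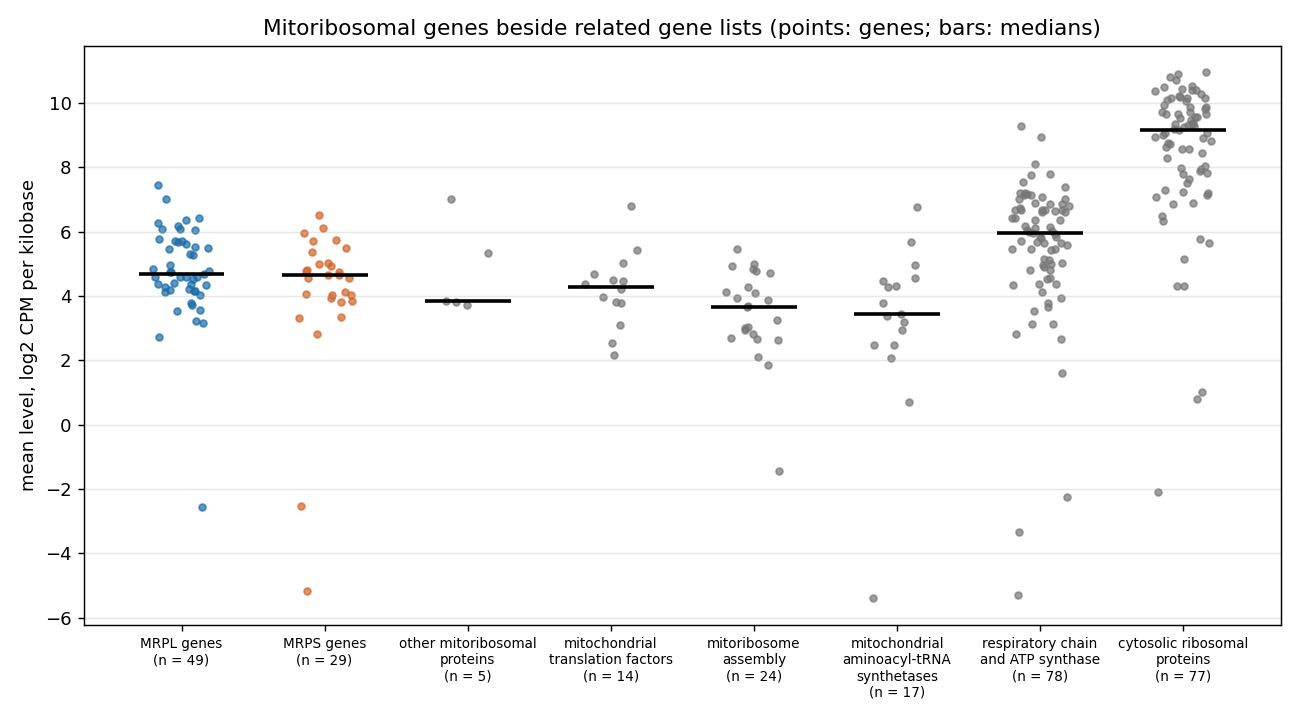
Level in log2 CPM per kilobase of each gene (points) and median (bars) for MRPL and MRPS genes and 6 lists of related genes. Cytosolic ribosomal proteins have the highest median at 9.15 and mitochondrial aminoacyl-tRNA synthetases the lowest at 3.46, with both MRP medians near 4.7.

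Many MRP genes start back to back with another gene. A coding gene on the opposite strand started within 1000 bases upstream of 26 of the 78 members, or 33.3%, against 1600 of 12432 coding genes with at least 10 implied reads, or 12.9%. This held for 19 of 49 MRPL and 7 of 29 MRPS genes. MRPS11 and MRPL46, one from each subunit, lie head to head with starts 320 bases apart and had 641 and 385 implied reads. MRPS12 starts 181 bases from SARS2, the mitochondrial seryl-tRNA synthetase, with 268 and 272 implied reads. MRPL43 starts 46 bases from TWNK, the mitochondrial DNA helicase, with 442 and 1528. MRPL47 starts 156 bases from NDUFB5, a subunit of complex I, with 1934 and 1198. PPP1R10, the partner of MRPS18B on chromosome 6 with a start 597 bases away, also had under 1 implied read, 0.618. MRPS18B has 6 copies on alternate contigs and its value is uncertain, and copies of PPP1R10 are not given here. A shared low output of this pair can therefore not be read from these values.

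Promoters were searched for motifs of factors known to act on nuclear genes for mitochondrial proteins. Windows of 250 bases before to 50 bases after the RefSeq start (GRCh38.p14) were found for 70 members, and not for MRPL2, MRPL10, MRPL13, MRPL15, MRPL21, MRPL23, MRPL35 and MRPS28. Both strands were read for CCGGAAG (ETS factors), AAGATGGCG (YY1) and CGCATGCG (NRF-1), none of which contains another. The ETS and YY1 motifs can share the letters AAG, but no overlapping match was found in the 4 members that held both. The ETS motif was in 30 windows, or 42.9%, against 14.9% of 15333 coding genes and 19.8% of 10287 coding genes with at least 10 implied reads. For YY1 it was 13 windows, or 18.6%, against 2.99% and 4.24%, and for NRF-1 3 windows, or 4.29%, against 3.01% and 4.01%. At least 1 motif was in 40 of the 70 windows, or 57.1%, against 25.9% of coding genes with at least 10 implied reads. The ETS share was 42.9% in both subunits, and the YY1 share was 19.0% in 42 MRPL and 17.9% in 28 MRPS genes. A match shows the letters in the window and not that a factor binds there. The windows also differ in what they hold after the start. The untranslated stretch before the coding sequence had a median of 30.5 bases in the 78 members. In coding genes with at least 10 implied reads it was 144. Windows that end 50 bases after the start can thus reach coding sequence more often in members. The part of this in the YY1 and other motif shares was not tested.

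**Figure D5:**
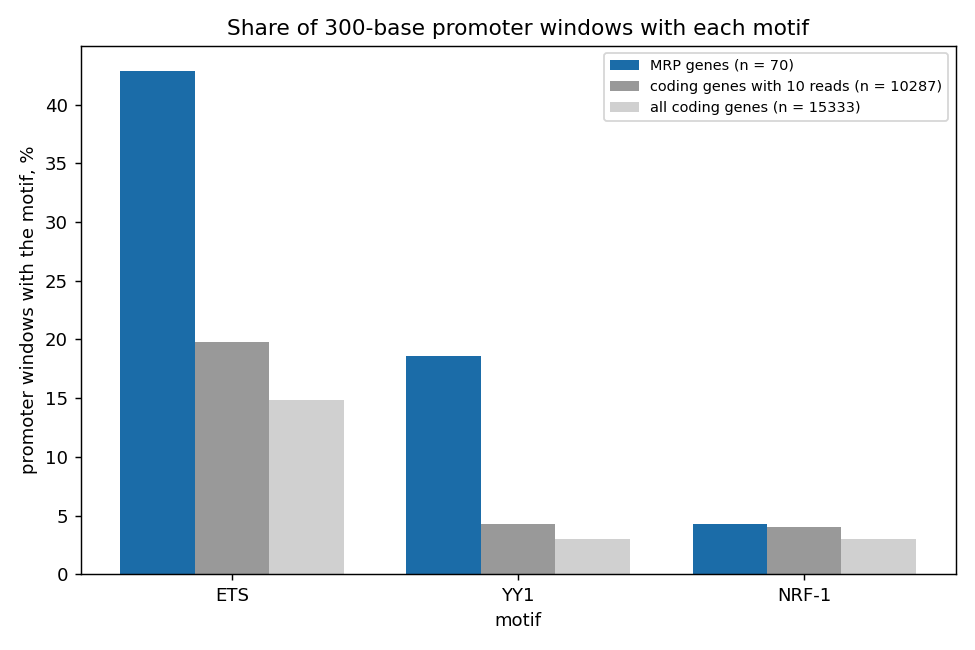
Share of promoter windows, in percent, that hold each motif on either strand, for 70 MRP genes (blue), 10287 coding genes with at least 10 implied reads (grey) and 15333 coding genes (light grey). The MRP share is 42.9% for ETS and 18.6% for YY1, and 4.29% for NRF-1.

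The 4 promoters with the most bases in motif copies are shown as the 150 bases just before the start in the RefSeq promoter table, 5′ to 3′ on the gene's strand, to let the repeated copies be seen. For MRPS22 that start lies inside the gene span given above, and the last of its marked copies lies within the span. Capitals mark the motif. MRPS22 (chr3:139343870-139344019, plus strand) and MRPS34 (chr16:1773135-1773284, minus strand) carry several ETS copies. MRPL52 (chr14:22829737-22829886, plus strand) carries a pair of YY1 copies, and MRPL17 (chr11:6683341-6683490, minus strand) a pair of NRF-1 copies. MRPL52 is not typical in this, since 11 of the 13 members with a YY1 match had none in these 150 bases.
MRPS22: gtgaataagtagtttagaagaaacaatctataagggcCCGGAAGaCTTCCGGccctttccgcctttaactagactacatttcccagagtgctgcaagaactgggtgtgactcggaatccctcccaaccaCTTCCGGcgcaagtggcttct
MRPS34: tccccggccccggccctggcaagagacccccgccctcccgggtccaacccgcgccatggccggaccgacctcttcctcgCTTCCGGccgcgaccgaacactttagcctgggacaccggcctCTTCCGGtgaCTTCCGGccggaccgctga
MRPL52: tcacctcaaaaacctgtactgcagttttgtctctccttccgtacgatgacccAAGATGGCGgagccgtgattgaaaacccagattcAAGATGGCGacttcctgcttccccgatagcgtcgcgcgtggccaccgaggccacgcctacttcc
MRPL17: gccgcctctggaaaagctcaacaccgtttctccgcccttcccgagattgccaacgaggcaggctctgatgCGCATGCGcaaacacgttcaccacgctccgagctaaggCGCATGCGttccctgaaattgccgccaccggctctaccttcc
These genes did not share a level. MRPS22 was the highest MRPS gene at 6.52 and MRPS34 had 5.36, while MRPL17 had 4.03 and MRPL52 3.23. Over the 70 members the median level was 4.80 with and 4.37 without an ETS motif, and 4.12 with and 4.75 without a YY1 motif. Over coding genes with at least 10 implied reads it was 3.97 with and 2.99 without a YY1 motif, so the order there was the other way round. For ETS it was 3.77 with and 2.83 without, the same order as in the members. The filters differ, since the members include genes under 10 implied reads. Of these, MRPS18B and MRPS24 hold a YY1 motif and MRPL45 does not.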

How the data were processed

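The authors prepared strand-specific libraries from A375 cells, aligned reads to hg38 with HISAT2 2.1.0, counted them per gene with featureCounts 2.1.1 and ran limma-voom 3.58.1, as the study's methods and the submitters' processing notes state. Normalization factors, filters, contigs and the use of strand are not given in the sources used here. Of the authors' deposited table, only the mean log2 CPM over all 6 libraries was used, to which voom adds 0.5 per count. The other columns, the authors' own log2 fold change between OZO and OLO with its t, p-value, adjusted p-value and log odds, were not used. OZO was therefore not compared with OLO, and the limma or edgeR fit planned for values per library was not run.

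Implied reads were 0.5 times 2 to the power of the mean above its lowest value, less 0.5. Because low genes give products of odd whole numbers, the least number of reads follows from them. This was tested on simulated data. Levels used the MANE Select transcript, or else the Ensembl canonical one, of GENCODE 44, matched by Ensembl identifier for 25497 genes. Coordinates are from RefSeq (GRCh38.p14), and those of MRPL45P2 from GENCODE 44. Copies were sought with minimap2 2.31-r1302. Tables were made with pandas 2.3.3, numpy 2.4.6, biopython 1.88 and matplotlib 3.10.9. Members and lists were chosen with earlier results of these data known.

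Named genes are the 6 highest and 6 lowest levels per subunit, MRPL12, MRPL36, MRPL58, MRPS12, MRPS18A to MRPS18C, MRPS28, MRPS30 and MRPS36, members under 10 implied reads or with a related row above 10% of their own, and 5 ribosomal proteins without an MRP symbol. Other genes were named after their values were seen. Promoter sequences are from RefSeq. Alternatives changed the length, the subunit assignment, the genes kept and the summary.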

Additional observations from a re-analysis of the deposited data

How the results depend on the processing

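The difference between the median levels of MRPL and MRPS genes, 0.05 on the log2 scale, reversed to −0.19 with coding length. It moved to 0.36 with the longest transcript, 0.19 with no length term, 0.68 as a mean over members and 0.24 as a mean over members with at least 10 implied reads, which was chosen after seeing the data. It was 0.04 with subunits by place, 0.11 without 12 members with a related row, shared exons or another placement, and 0.05 without members under 10 implied reads. The low values of MRPS18B and MRPS24, both MRPS genes, enter the mean of 0.68 and not that of 0.24. The difference between bacterial-counterpart and mitochondria-specific proteins, −0.04, reversed to 0.56 as a mean, 0.61 with coding length and 0.28 with no length term, and was −0.08 without members under 10 implied reads, chosen after seeing the data. The median of the members, 4.66, moved to 6.08 with coding length, 4.25 with the longest transcript and 5.30 with no length term. The median percentile of the members, 75.6 among genes with a read, moved to 81.6 among all genes and 62.1 among genes with at least 10 implied reads. A change under 0.061 on the log2 scale or 1 percentile was counted as no move. Why the values moved was not tested beyond what each setting changes.

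No paired analysis was possible because only means over the libraries were used. The replicate block, leaving out each replicate, another normalization, filter or pseudocount, and edgeR or DESeq2 were not run on that account. The depth is known only as a geometric mean over libraries, and errors cover counting only.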
